A study of Mus musculus with 8 samples.

Results

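The genes described here are 9 components of the Src family kinase machinery of blood cells, taken by symbol from gene-level RNA-seq counts of 24421 gene symbols. They are the kinases Lyn, Fgr, Fyn and Src, their inhibitory kinase Csk, the membrane adaptors Pag1 and Lat2, the scaffold Lcp2 and the signalling protein Tespa1. The set was chosen by the RNA counts of Pag1 and Tespa1, because the former was higher and the latter lower in both knockout libraries, so the values of the knockout against wild type contrast are given for these 9 genes as a description, with no test. All 9 symbols were listed in the counts, and 8 passed the filter on low counts that left 12623 genes for testing. Src did not pass. Fyn passed only through the knockout libraries, as 0 of 2 wild-type libraries and 2 of 2 knockout libraries reached the filter's level.

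RNA came from leukemic bone marrow cells of C57BL/6 mice that had been transformed with MLL-AF9, a fusion oncogene of acute leukemia carried by both groups. Cells were thawed from frozen marrow and sorted for high c-KIT, a growth factor receptor of immature blood cells. The wild-type group (WT, 2 libraries) came from Ikzf2f/f mice, which carry a floxed but intact Ikzf2, and the knockout group (KO, 2 libraries) from Ikzf2Δ/Δ mice. The deleted gene codes for Helios, a DNA-binding zinc finger protein of the Ikaros family. The labels give neither the Cre driver, the deleted exons nor the age of the mice, and no label ties the replicates to separate animals, so the spread between libraries may in part be technical. The series title frames the comparison as a question of self-renewal against myeloid differentiation.

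Src family kinases are membrane-anchored tyrosine kinases that start signalling from immune and growth factor receptors. CSK holds them inactive by phosphorylating a tyrosine in their C-terminal tail, and PAG1, a transmembrane adaptor of lipid rafts, brings CSK to the membrane. LAT2 and LCP2 are scaffolds on which kinase substrates assemble after receptor engagement, and LYN and FGR are well known from myeloid cells. TESPA1 was described in developing T cells, where it takes part in antigen receptor signalling and binds IP3 receptors, the calcium channels of the endoplasmic reticulum.

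Gene counts per library ranged from 16006081 to 19286090, and levels below are CPM, a count scaled to its library size, normalised by the TMM method. At these depths a count of 3 equals 0.150 to 0.186 CPM. Ikzf2 itself had 283 and 271 CPM in the WT libraries, against 10.9 and 26.5 CPM in KO, each given in the order of replicates 1 and 2, which all values below follow. KO replicate 1 stood apart in sex-linked RNA, with Xist at 833 CPM against 0.352 to 0.600 CPM in the other 3 libraries, and fold changes with it left out are therefore given for each gene fitted. Markers of the labelled cells were present in every library, with Kit at 216 to 376 CPM, Hoxa9 at 280 to 334 CPM, Meis1 at 114 to 216 CPM and Ptprc at 288 to 408 CPM. Mpo, the myeloperoxidase gene fixed as a further marker, was uneven, with 286 and 343 CPM in WT, against 7073 and 4311 CPM in KO. Of the 6 markers fixed for the labelled cells, 3 (Hoxa9, Hoxa10 and Ptprc) were lower in each KO library than in either WT library. Only 1 of them, Mpo, was higher. Over all genes tested these shares were 19.1% and 18.1%.

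Sequence before the start sites was searched for the core motif of the deleted factor's family. Ikaros family proteins recognise a GGGAA core, and RefSeq start sites of build GRCm38.p6 were given for 5 of the 9 genes, Csk, Fgr, Fyn, Src and Lcp2. The sequences of Fgr (chr4:132973845-132974094, plus strand) and Lcp2 (chr11:34046678-34046927, plus strand) are shown because each holds the core 2 times within the 250 bases before the start, while Fgr varied widely between replicates and Lcp2 stayed in a narrow range. They read 5′ to 3′ and end at the base before the start, with the GGGAA core in capitals.
Fgr: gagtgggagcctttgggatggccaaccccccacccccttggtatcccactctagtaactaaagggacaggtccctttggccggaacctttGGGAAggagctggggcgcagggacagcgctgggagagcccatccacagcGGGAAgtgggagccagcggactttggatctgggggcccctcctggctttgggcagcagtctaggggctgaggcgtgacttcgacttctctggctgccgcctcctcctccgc
Lcp2: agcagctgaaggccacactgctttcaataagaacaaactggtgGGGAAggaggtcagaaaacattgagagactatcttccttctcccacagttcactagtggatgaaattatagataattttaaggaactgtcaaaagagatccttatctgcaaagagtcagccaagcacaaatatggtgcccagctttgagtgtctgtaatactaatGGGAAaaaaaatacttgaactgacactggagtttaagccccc
Both strands were searched. The core began 160 and 111 bases before the start in Fgr and 207 and 42 bases before it in Lcp2. Csk held 1 core before its start at the outer end of the gene, on the opposite strand, and 0 before an inner start. Fyn and Src held 0 in this window. Of 32851 start sites in the RefSeq table, 56.2% had GGGAA within the same 250 bases, and 21.6% had the longer TGGGAA, which contains it and which occurred 1 time each in Fgr and Lcp2. These matches are a description of letters and not of binding.

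Pag1, the adaptor that recruits CSK, was higher in the knockout cells. Pag1 (chromosome 3, 9687479 to 9833684) had 369 and 436 reads in WT and 1635 and 1662 reads in KO, or 18.5 and 23.1 CPM against 101 and 97.6 CPM. Both KO libraries lay far above both WT libraries, and the replicates of each group lay close together. The means were 20.8 ± 3.31 CPM in WT and 99.4 ± 2.53 CPM in KO (SD, n = 2 each), and the log2 fold change was 2.26 (SE 0.23), a 4.78-fold higher level. Across the 4 pairings of a KO with a WT library, the log2 difference ran from 2.07 to 2.45. Leaving out each library in turn gave fold changes between 2.10 and 2.44 on the log2 scale, with 2.23 when the Xist-positive library was absent. In this bulk RNA, a change in the number of cells of a type and a change in RNA per cell cannot be told apart.

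Csk, the kinase that PAG1 brings to the membrane, lay in the same range in both genotypes. Csk (chromosome 9, 57626646 to 57653631) stood at 229 and 220 CPM in WT, against 225 and 194 CPM in KO. The groups overlapped, and all 4 libraries lay within a narrow band. Its log2 fold change was -0.10 (SE 0.21), against a median of -0.0043 over all 12623 genes tested. The sign turned when KO replicate 2 was left out, where the value was 0.0056, and it was -0.21 without KO replicate 1, so these libraries show no direction for Csk.

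**Figure D1:**
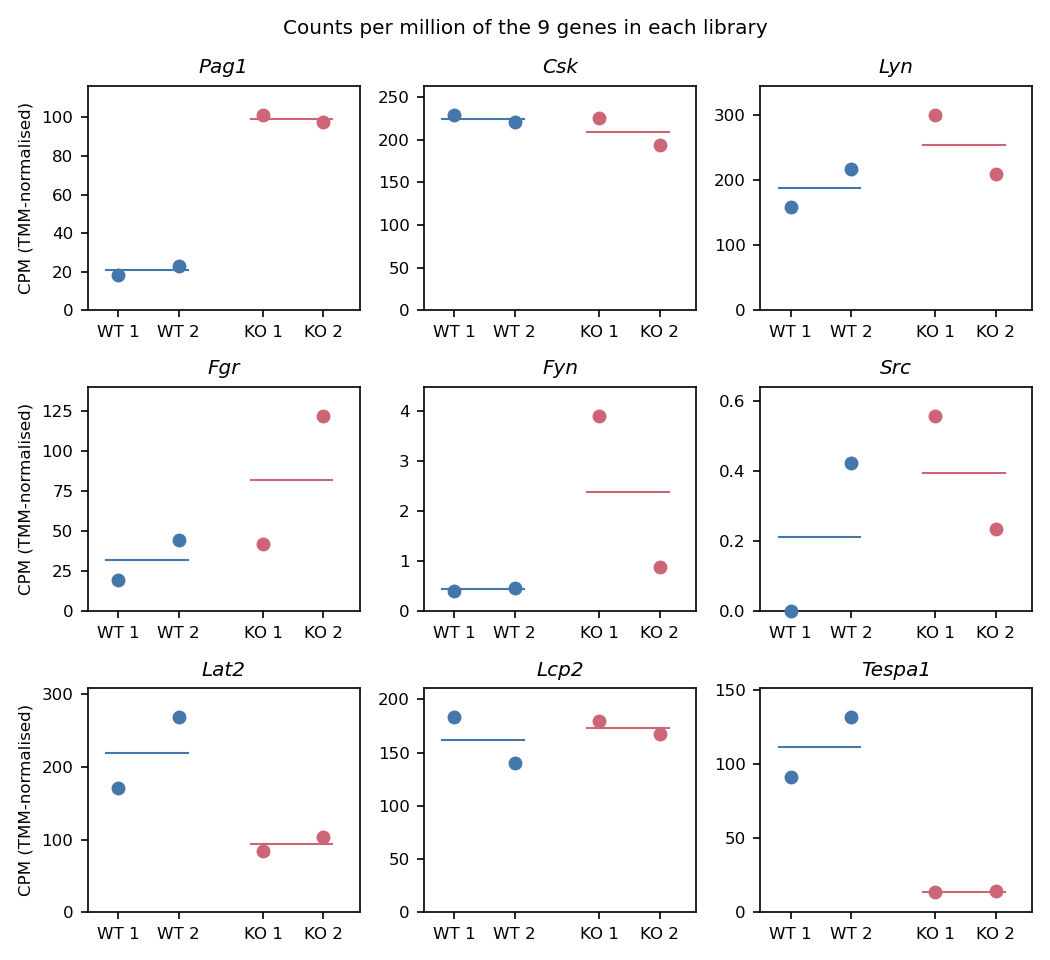
TMM-normalised CPM (vertical axes, each starting at 0 with its own range) of the 9 genes in the 2 WT and 2 KO libraries, with a line at each group's mean. Pag1 (18.5 and 23.1 CPM against 101 and 97.6 CPM) and Tespa1 (91.1 and 132 CPM against 13.5 and 14.6 CPM) separate the groups, while Csk, Lyn, Fgr, Src and Lcp2 overlap.

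Among the kinases, Lyn was higher on average in KO, but the groups overlapped. Lyn (chromosome 4, 3678068 to 3791612), counted with 3167 to 4838 reads per library, had 158 and 217 CPM in WT, against 299 and 209 CPM in KO. KO replicate 1 was the highest, and KO replicate 2 lay between the WT libraries. The log2 fold change was 0.43 (SE 0.29), and it was 0.15 without KO replicate 1. The locus overlaps the gene 6330407A03Rik, which is also counted, and no strand setting was given, so reads in the overlap cannot be told apart.

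Fgr, a kinase of neutrophils and monocytes, varied as much between replicates as between genotypes. Fgr (chromosome 4, 132974095 to 133001893) had 385 and 834 reads in WT and 674 and 2070 reads in KO, or 19.3 and 44.2 CPM against 41.7 and 121 CPM. KO replicate 1 lay just below WT replicate 2, so the groups overlapped. Replicate 2 was above replicate 1 by 1.20 in WT and by 1.54 in KO on the log2 scale, whereas the median absolute log2 difference between replicates over all genes tested was 0.27 in WT and 0.43 in KO. Between libraries of the same number, KO was higher by 1.11 for replicate 1 and by 1.46 for replicate 2, though no label pairs them. The log2 fold change was 1.36 (SE 0.65), a 2.57-fold higher mean level in KO. It depended on KO replicate 2, without which it was 0.39, and it was 0.89 and 2.10 with WT replicates 1 and 2 left out and 1.94 with KO replicate 1 left out.

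Neutrophil and monocyte genes were also uneven across these libraries. The summed level of 9 neutrophil markers, which include S100a8, Ngp and Ltf, was 850 and 3949 CPM in WT, against 12900 and 18410 CPM in KO. Of the 9, 6 were higher in each KO library than in either WT library, beside 18.1% of all genes tested. Replicate patterns differed within this list. Mmp9, the gelatinase of neutrophil granules, had 25.6 and 255 CPM in WT, against 26.1 and 278 CPM in KO, high in replicate 2 of each group. Camp had 79.8 and 567 CPM in WT, against 4600 and 2605 CPM in KO, where replicate 2 was the lower. Monocyte and macrophage markers, 7 genes, summed to 2161 and 1205 CPM in WT, against 2099 and 1842 CPM in KO, most of it from Ly6c2. Of these 7, 4 were higher in each KO library than in either WT library, beside the same 18.1% of all genes tested. F13a1 was among them, with 25.5 and 14.6 CPM in WT, against 232 and 154 CPM in KO. The part of neutrophil or monocyte cells in the Fgr values was not tested.

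Fyn, a kinase best known from lymphocytes and brain, was near the detection floor in WT. Fyn (chromosome 10, 39369743 to 39565381) had 8 and 9 reads in WT and 63 and 15 reads in KO, or 0.400 and 0.478 CPM against 3.90 and 0.881 CPM. The KO libraries were above the WT libraries, but most KO reads came from replicate 1. The log2 fold change was 2.43 (SE 0.95) and was 0.99 without that library and 3.13 without KO replicate 2. Dendritic cell markers were also highest in that library: their summed level, over 6 genes, was 71.3 and 20.0 CPM in WT, 287 CPM in KO replicate 1 and 23.7 CPM in KO replicate 2. H2-Ab1, an MHC class II gene, made up most of it with 268 CPM in KO replicate 1, and Cd209a had 99 reads there against 0, 1 and 1 elsewhere, while Ccr9 had at most 6 reads in any library. Itgax, of the same list, was highest elsewhere, with 37.1 and 2.12 CPM in WT, against 10.5 and 5.58 CPM in KO. The part of such cells in the Fyn values was not tested.

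Src, the founding member of the family, was hardly detected. Src (chromosome 2, 157423906 to 157471838) had 0 and 8 reads in WT and 9 and 4 reads in KO, which is at most 0.557 CPM. The groups overlapped, and no fold change is given at this depth.

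The adaptor Lat2, known as NTAL or LAB and expressed in B, mast and myeloid cells, was lower in the knockout cells. Lat2 (chromosome 5, 134600103 to 134619783) had 3427 and 5060 reads in WT and 1360 and 1779 reads in KO, or 171 and 268 CPM against 84.1 and 104 CPM. Both KO libraries lay below both WT libraries, and the WT libraries differed from each other by 1.57-fold. The log2 fold change was -1.22 (SE 0.29), a 2.33-fold lower level, with -1.51 to -0.85 when each library was left out in turn and -1.07 without KO replicate 1. The difference was -1.03 between the libraries numbered 1 and -1.36 between those numbered 2. Mast cell and basophil markers, 6 genes that include Cpa3, Mcpt8 and Ms4a2, summed to 68.2 and 38.2 CPM in WT, against 140 and 48.7 CPM in KO. The groups overlapped in this sum, with KO replicate 2 below WT replicate 1. Of the 6 genes, 2 were higher in each KO library than in either WT library, beside 18.1% of all genes tested. Of the B cell markers, Pax5 had at most 1 read in any library. The sum over 7 genes was 24.1 and 17.9 CPM in WT, against 35.8 and 25.7 CPM in KO, most of it from Cd79b. Of these 7, 3 were higher in each KO library than in either WT library, beside the same 18.1% of all genes tested. Among the 3 were Cd79a, with 12 and 15 reads in WT and 16 and 17 in KO, and Ms4a1, with 0 and 0 against 9 and 1. Ms4a1 thus counts as higher on 1 read in KO replicate 2, whereas the 18.1% covers only genes that passed the filter. The part of such cells in the Lat2 values was not tested.

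Lcp2, which encodes the scaffold SLP-76, stayed in a narrow range. Lcp2 (chromosome 11, 34046928 to 34092281) stood at 183 and 141 CPM in WT, against 179 and 168 CPM in KO. Both KO values lay between the WT values. The log2 fold change was 0.10 (SE 0.23), and it was -0.0645 without WT replicate 2. Leaving out KO replicate 1 gave 0.049. Of all genes tested, 78.6% had a larger absolute fold change than Lcp2, and the same share had a larger one than Csk.

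Tespa1 showed the largest absolute fold change of the 8 genes fitted. Tespa1 (chromosome 10, 130322826 to 130363469) had 1822 and 2480 reads in WT and 219 and 249 reads in KO, or 91.1 and 132 CPM against 13.5 and 14.6 CPM. The KO libraries nearly coincided, and even the lower WT library was several times above them. The means were 111 ± 28.6 CPM in WT and 14.1 ± 0.756 CPM in KO (SD, n = 2 each), and the log2 fold change was -2.98 (SE 0.27), a 7.90-fold lower level. The log2 difference ran from -3.27 to -2.63 over the 4 pairings of a KO with a WT library. The fold change was between -3.22 and -2.68 on the log2 scale with each library left out, at -2.93 without KO replicate 1, and 196 of 12623 genes had a larger absolute value.

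Because Tespa1 is known from T cells, T cell markers were examined beside it. Cd8a had 0 reads in every library, Cd3e had 0, 0, 1 and 0 reads, Cd3d had 4, 8, 10 and 9 reads and Cd4 had 2, 0, 1 and 0 reads in WT replicates 1 and 2 and KO replicates 1 and 2. The T and NK marker sum over 10 genes was 108 and 73.4 CPM in WT, against 104 and 146 CPM in KO, and Nkg7 alone gave 64.8 to 133 CPM of it. Cd247, the CD3 zeta chain gene, had 7.45 and 4.56 CPM in WT, against 6.87 and 8.51 CPM in KO, and Cd5 had 21 and 67 reads in WT and 33 and 60 in KO. Ncr1, like Cd8a, had 0 reads in every library. Of the 10 markers, 1 was higher and 0 lower in each KO library than in either WT library. Over all genes tested these shares were 18.1% and 19.1%. The part of T cells in the Tespa1 values was not tested.

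**Figure D2:**
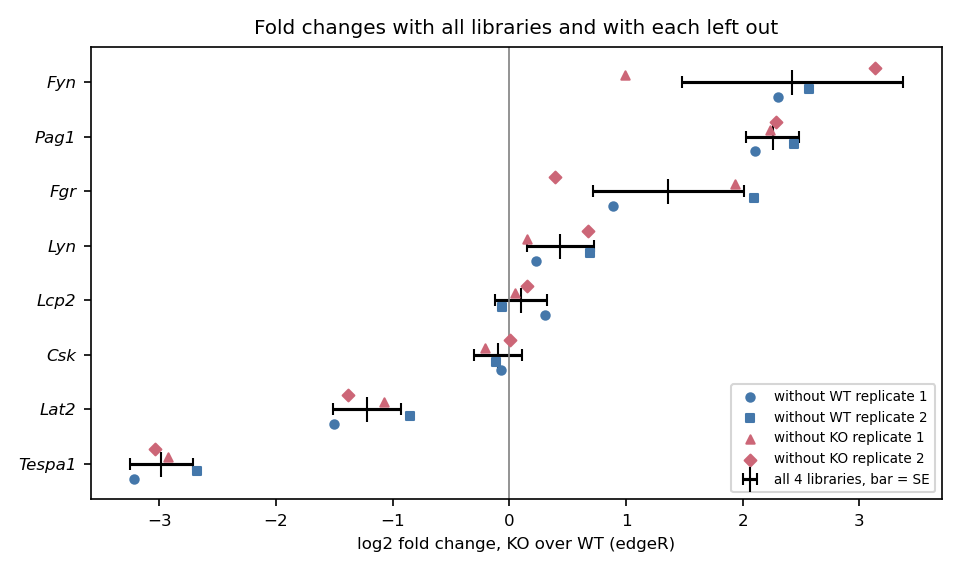
Log2 fold change of KO over WT (horizontal axis) for the 8 genes fitted, as a tick with its SE over all 4 libraries and as symbols with each library left out. Tespa1 (-3.22 to -2.68), Lat2 (-1.51 to -0.85) and Pag1 (2.10 to 2.44) keep their sign with narrower ranges than Fgr (0.39 to 2.10, lowest without KO replicate 2 and highest without WT replicate 2) and Fyn (0.99 to 3.13, from leaving out either KO library).

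Set against all genes, the 8 fitted genes held both strongly different and nearly level members. Pag1 and Fyn were higher and Lat2 and Tespa1 lower in each KO library than in each WT library, which is 4 of 8. Over all genes tested the groups did not overlap in 37.2%, with 18.1% higher and 19.1% lower in KO. The median absolute log2 fold change was 1.29 over the 8 and 0.26 over all genes tested. The contrast chose the set, and Fyn entered through its higher group, so nothing is read from these counts.

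**Figure D3:**
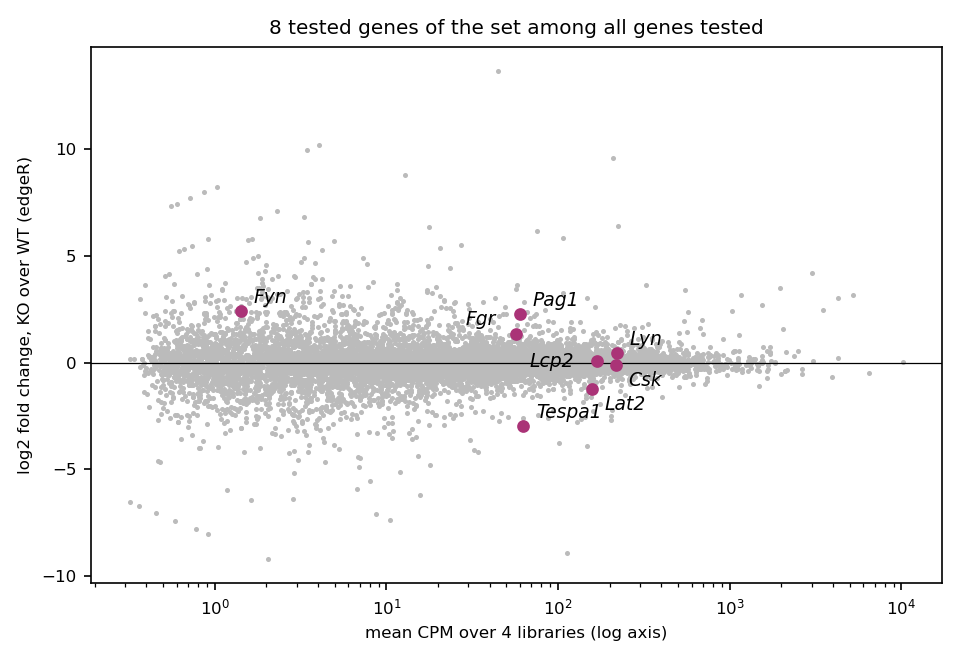
Log2 fold change of KO over WT (vertical axis) against mean CPM over the 4 libraries (log axis) for all 12623 genes tested, in grey, with the 8 fitted genes of the set in purple. Pag1 (2.26) and Tespa1 (-2.98) lie on opposite sides of 0, and Csk and Lcp2 lie close to 0.

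Other genes with the same profile over the 4 libraries were sought by the root mean square difference of centred log2 CPM, among 10229 genes with a mean of at least 5 CPM. Closest to Pag1 were Usp2, a ubiquitin protease, at 0.12, Ttc21a at 0.16 and the pseudogene Tmem181c-ps at 0.18. Usp2 had 5.50 and 6.84 CPM in WT, against 26.7 and 24.0 CPM in KO. Closest to Tespa1 were Erbb3, a receptor of the EGF receptor family, at 0.24, the ceramide synthase gene Cers4 at 0.25 and the calpain gene Capn2 at 0.30. Cers4 had 7.65 and 13.7 CPM in WT, against 1.73 and 1.70 CPM in KO. With 4 libraries these likenesses mostly restate the difference between the groups.

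The rest of the pathway was read from 86 further genes in 7 lists, all of them listed in the counts and 72 of them tested. The genotypes were compared by the quasi-likelihood test of edgeR over all genes, at a Benjamini-Hochberg adjusted p of 0.05, with DESeq2 as an alternative. Of the 72, edgeR called 0, as it called 0% of all genes (lowest adjusted p = 0.207), and 9 had an unadjusted p under 0.05, against 968 of 12623 genes. Ikzf2, the deleted gene, was not called by edgeR either (log2 fold change -3.89, adjusted p = 0.332), though DESeq2 called it (adjusted p = 1.13e-13). The absence of an edgeR call is therefore no sign that a gene was unchanged. DESeq2 called 3 of the 74 genes for which it gave an adjusted p, each of them higher in KO, beside 1.56% of all genes higher, 1.07% lower and 2.62% in either direction. Above 0 were 41 and below 0 were 31 of the 72, with a median log2 fold change of 0.10, which was the same with Yes1 at its lower bound. Both KO libraries lay above both WT libraries in 18 of the 72 and below them in 16. Over all genes tested these shares were 18.1% and 19.1%, or 37.2% in either direction. Yes1 is counted among the 41, the 18, the 3 DESeq2 calls and the 9 with an unadjusted p under 0.05. It passed the filter only through the KO libraries, so it could only appear as higher in KO.

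The list of phosphatases of Src family signalling held 2 of the 3 DESeq2 calls. Ptprj, the receptor phosphatase CD148, rose by DESeq2 (adjusted p = 0.00716, edgeR adjusted p = 0.444) from 23.3 and 18.9 CPM in WT to 45.8 and 54.7 CPM in KO. Its log2 fold change was 1.25 (SE 0.25). Ptpn22, a cytosolic phosphatase that partners with CSK, rose by DESeq2 (adjusted p = 0.0312, edgeR adjusted p = 0.444) from 43.0 and 42.0 CPM to 81.7 and 75.2 CPM, with a log2 fold change of 0.89 (SE 0.20). Neither call survived the loss of a library: without WT replicates 1 and 2 and KO replicates 1 and 2, the adjusted p of DESeq2 was 0.276, 0.451, 0.0938 and 0.205 for Ptprj and 0.936, 0.749, 0.454 and 0.159 for Ptpn22. The log2 fold changes themselves stayed between 1.12 and 1.41 for Ptprj and between 0.82 and 0.94 for Ptpn22. Ptprc, the CD45 phosphatase that removes the inhibitory phosphate from the kinase tail, had a log2 fold change of -0.29 (SE 0.23, edgeR adjusted p = 0.870). Of the 12 phosphatases tested, 7 were above 0 and 5 below.

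Of the other Src family kinases and the CSK relative Matk, 4 of 8 were tested, and Blk, Frk, Ptk6 and Srms had 0 reads in every library. Yes1 had 0 and 0 reads in WT and 32 and 15 reads in KO. It passed the filter only through the KO libraries, where it is high. Its call by DESeq2 (adjusted p = 0.0301, edgeR adjusted p = 0.444) is therefore given as a description. Against a floor of 3 counts per WT library it was at least 9.25-fold higher. DESeq2 did not call it with any library left out (adjusted p = 0.308 with WT replicate 1 left out, 0.178 with WT replicate 2 and 0.274 with KO replicate 2 left out, and none given for KO replicate 1). The next 2 genes were chosen after their values were seen. Lck, the T cell kinase, had 4.45 and 3.61 CPM in WT, against 0.433 and 1.29 CPM in KO, for a log2 fold change of -2.21 (SE 0.75, edgeR adjusted p = 0.589). Matk had 279 CPM in WT replicate 1 and 63.8 to 65.3 CPM in the other 3 libraries, and without WT replicate 2 edgeR called it lower (log2 fold change -2.09, adjusted p = 0.00441), where the lone WT library is assumed to vary like the KO libraries.

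Adaptors showed no calls by either tool. Of 7 other transmembrane adaptors 4 were tested, and Gapt, a GRB2-binding adaptor, had the highest mean CPM, uncorrected for gene length, with 378 and 592 CPM in WT, against 280 and 367 CPM in KO, for a log2 fold change of -0.59 (SE 0.31). Lime1, which also binds CSK, had 0.27 (SE 0.26). Lat, the T cell relative of Lat2, had 49 and 14 reads in WT and 81 and 14 reads in KO. Of 25 cytosolic adaptors 21 were tested, 13 above 0 and 8 below, and those of highest mean CPM were Dok3 with a log2 fold change of 0.38 (SE 0.24) and Skap2 with -0.29 (SE 0.27).

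The downstream kinases and effectors were likewise without a call. Of 11 tested kinases 4 were above 0 and 7 below, with Fes at 0.21 (SE 0.22) and Syk, which binds phosphorylated receptor tails, at 0.20 (SE 0.29). Of 17 tested effectors 12 were above 0 and 5 below, with the small GTPase Rac2 at 0.55 (SE 0.24) and the exchange factor Vav1 at 0.33 (SE 0.21). Itpr3, an IP3 receptor gene named after its values were seen, had 79.2 and 122 CPM in WT, against 26.4 and 57.1 CPM in KO, for a log2 fold change of -1.27 (SE 0.44, edgeR adjusted p = 0.594). Itpr1 and Itpr2 had 0.13 (SE 0.40) and 0.17 (SE 0.44). Of the genes for other IP3 receptor partners, Lrmp had -0.27 (SE 0.20), Ssfa2 -0.59 (SE 0.34) and Mrvi1 -0.51 (SE 0.74), so all 3 tested were below 0, and Ccdc129 had 0 reads in every library.

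**Figure D4:**
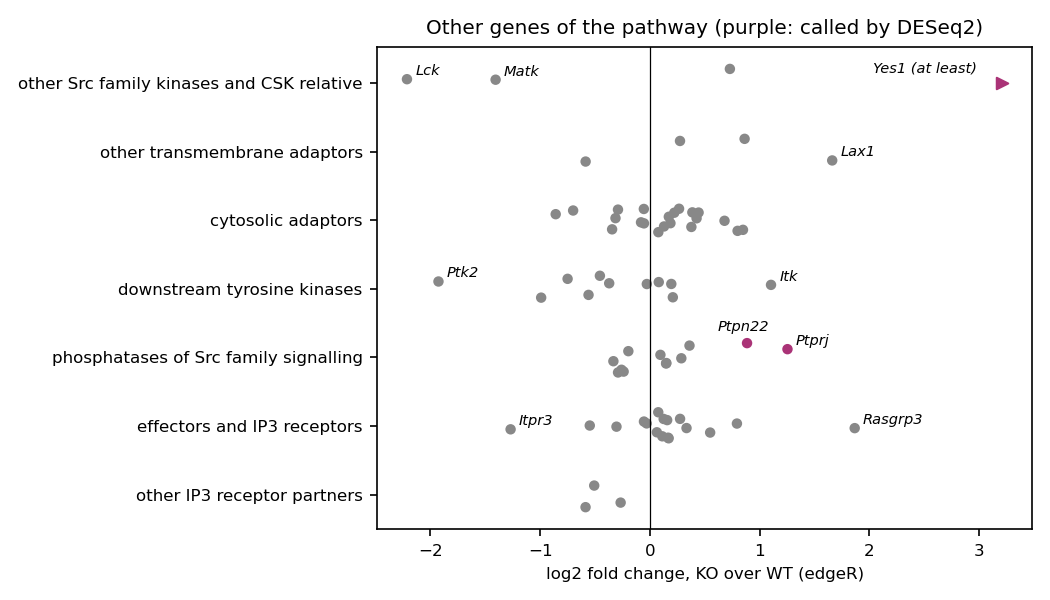
Log2 fold change of KO over WT (horizontal axis) for the 72 tested genes of the 7 pathway lists, 1 point per gene with vertical scatter for display only, in purple where DESeq2 called the gene. Yes1, with 0 reads in WT, is drawn at its lower bound of 3.21, Ptprj stands at 1.25 and Ptpn22 at 0.89, and most other genes lie within a narrow band around 0.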

How the data were processed

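RNA-seq counts of 4 libraries were analysed, and the 4 chromatin accessibility samples of the series were not analysed here. The deposited files hold raw counts per gene symbol. The submitters' processing notes list build mm10 and, among tools with no stated role, the aligner STAR 2.3.0 and the counter HTSeq. Annotation and strand setting: not given in the sources used here. Rows at the file end for reads not assigned to a gene, 69.3% to 72.4% of all counts, were left out. Groups came from the sample titles. Genes were kept by filterByExpr of edgeR 4.0.16 (R 4.3.3), scaled by TMM and compared by the quasi-likelihood F-test with robust moderation and no covariate. The SE is the log2 fold change over √F. DESeq2 1.42.0 and voom of limma 3.58.1 were alternatives, and scripts were tested on simulated data. Log2 differences between libraries use CPM plus 0.1. Coordinates are those of GRCm38.p6 in RefSeq, which held 23204 of 24421 symbols. Levels are not compared between genes, since exon lengths were not used here. Members and lists were chosen with earlier results of these data known. Named genes are the 9 members, Ikzf2, the called genes of each list or else the 2 of highest mean CPM, and the 3 nearest profiles to Pag1 and to Tespa1. Some genes of the lists are not reported here. Genes named beside these, the markers and the genes said to be chosen after their values were seen, fall outside that rule.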

Additional observations from a re-analysis of the deposited data

How the results depend on the processing

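Over 11 other settings, Pag1, Lyn, Fgr and Fyn stayed above 0 and Lat2 and Tespa1 below 0. Csk turned to 0.0056 without KO replicate 2 and was -0.21 without KO replicate 1. Lcp2 turned to -0.0645 without WT replicate 2 and was 0.30 without WT replicate 1. The count of members whose groups did not overlap was the same with library size alone and with RLE scaling. Over all genes, edgeR's 0 calls became 4 with every gene that had a count, 11 with a replicate block and 0 to 197 with a library left out, the highest without WT replicate 2 and 55 without WT replicate 1. DESeq2 called 352, and voom, RLE, library size alone and a mean CPM of at least 1 gave 0. Of the pathway genes, DESeq2 called 3, edgeR 0 to 1 with a library left out and 0 with the replicate block. DESeq2 with a library left out, chosen after seeing the data, called 0 to 4 of them. It called 0 without WT replicate 1, Matk alone without WT replicate 2, and Cbl, Itpr3, Rasgrp2 and Sla without KO replicate 2. The replicate numbers are shared between the groups, but the labels do not tie them to a litter, batch or day. The differences between replicates correlated at 0.19 across genes between the groups. With the block, the log2 fold change was 2.26 (SE 0.24) for Pag1, -1.19 (SE 0.22) for Lat2 and -2.96 (SE 0.25) for Tespa1. For Fgr it was 1.29 (SE 0.23), against 1.36 (SE 0.65) without the block. The comparison of levels by exon or transcript length was not run. Depth limits Src, Fyn and Yes1.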
